A study of Rattus norvegicus with 8 samples.

Results

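The 7 genes described here, Mbp, Mobp, Mag, Mog, Cnp, Ugt8 and Cldn11, code for proteins of the myelin sheath or for the enzyme that makes its main glycolipid. They were taken by name, with earlier results of these data known, and are 7 of 10412 genes that a probe set with 1 symbol names. All probe sets that the platform annotation gives to exactly 1 of these symbols were taken, which gave 13 of the 15923 on the array. Of these 13, 12 passed the filter on low signal and were among the 10314 tested. The probe set that did not pass was 1368857_at of Ugt8.

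RNA came from a segment of the right brain hemisphere of male Wistar rats aged 7 weeks, and each Affymetrix RAE 230A array held a pool of 2 rats. The 4 groups had 2 pools each. The MCAO candesartan group received candesartan, a blocker of the angiotensin AT1 receptor, at 0.1 mg/kg subcutaneously, given 2 times a day for 5 days, and then had the middle cerebral artery occluded (MCAO) for 90 min. The MCAO vehicle group received 0.9% NaCl before the same occlusion, the sham candesartan group received candesartan before a sham operation, and the sham vehicle group received 0.9% NaCl before a sham operation. RNA was taken 2 h after surgery. The treatment text of the second MCAO candesartan pool names no pretreatment, and its group rests on the label of its source. A pool averages its rats, so the spread between rats was not seen.

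Oligodendrocytes wrap axons in a spiral of membrane that insulates them and speeds conduction. The cytoplasmic faces of that membrane are held together in compact myelin, while other proteins sit at the outer surface, at the inner face toward the axon, or between adjoining turns. Oligodendrocytes are known to be vulnerable to loss of blood flow, and white matter is damaged in stroke. In tissue RNA, fewer oligodendrocytes and less of a transcript in each of them cannot be told apart.

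The promoters were searched because myelin genes are known targets of Sox10, a transcription factor of the oligodendrocyte lineage. SOX factors bind a core written ACAAAG, and both strands were searched, so that a match can also read CTTTGT. RefSeq windows of GRCr8 covered 6 of the 7 genes in 7 windows. The bases printed are those before the annotated start of the gene, 5′ to 3′ on the strand of the gene, with matches in capitals.
Mobp, chr8:128746982-128747116, plus strand: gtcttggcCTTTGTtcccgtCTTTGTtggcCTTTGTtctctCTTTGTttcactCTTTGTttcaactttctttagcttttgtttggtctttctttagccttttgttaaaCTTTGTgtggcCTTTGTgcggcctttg
Mag, chr1:95291134-95291294, minus strand: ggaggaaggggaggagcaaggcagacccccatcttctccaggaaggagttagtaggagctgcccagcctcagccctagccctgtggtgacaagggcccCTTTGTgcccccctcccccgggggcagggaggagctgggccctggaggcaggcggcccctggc
Cnp, chr10:86011254-86011503, plus strand: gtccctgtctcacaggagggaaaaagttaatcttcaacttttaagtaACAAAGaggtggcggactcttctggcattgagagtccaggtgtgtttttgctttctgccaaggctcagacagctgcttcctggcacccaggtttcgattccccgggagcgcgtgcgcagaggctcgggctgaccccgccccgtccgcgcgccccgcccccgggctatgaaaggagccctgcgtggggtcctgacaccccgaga

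Over the first 250 bases of each window, 16.3% of 33469 windows of all genes held at least 1 match. For Mobp and Mag these bases run past the annotated start of the gene, which follows 135 and 161 bases. Mobp held 8 matches, all as CTTTGT and 7 of them in the stretch printed, and 2 of all windows (0.00598%), that of Mobp included, held that many. Its stretch is a run of near repeats of this word. Mag and Cnp held 1 match each, 1 of the 2 Mbp windows held 1, and the windows of Ugt8 and Cldn11 held 0. A match describes the letters and not the binding of a factor, and binding was not measured.

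Before any comparison, the array MCAO candesartan 2 was seen to stand apart. Its mean correlation with the other arrays over tested probe sets was 0.951, against 0.970 to 0.973 for the other 7. Bright probe sets were brighter on it: over the brightest 1% (104 probe sets) the median signal was 0.45 (log2) above the median of the other arrays, and on the other arrays that median lay between -0.09 and 0.08. The ratio of 3′ to 5′ signal, a measure of intact RNA, was 1.99 for beta-actin and 1.07 for GAPDH on it, within the ranges of the other arrays, 1.57 to 2.03 and 1.00 to 1.14. The 3′ signals of both were above those ranges, 86549 for beta-actin against 49177 to 55426, and 89798 for GAPDH against 59812 to 69962. The differences of the members that involve MCAO candesartan are therefore also given without this array, from a fit of the other 7 arrays. The 4 groups share an estimate of spread, so this array also enters the SE and p-values of the other comparisons. In MCAO minus sham of vehicle rats, the SE of Mobp 1368263_a_at and of Mag was smaller without it.

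No tested member probe set passed an adjusted p of 0.05 in any of the 5 comparisons (limma with Benjamini-Hochberg adjustment over all tested probe sets). The differences below are on a log2(signal + 370) scale with the SE of the model, and signals are linear intensities. Some groups are said below to lie apart from all other arrays, and the share of all probe sets that do so was not counted. Among the 4 comparisons of a pair of groups, the largest differences lay between candesartan and vehicle after MCAO. They were 0.70 for Mbp 1368810_a_at and -0.62 for Mobp 1368263_a_at. Next came 0.58 for Mobp 1368263_a_at in MCAO minus sham of vehicle rats. Mag and Ugt8 followed, at -0.58 and -0.55 for candesartan against vehicle after MCAO. For Mbp, Mobp 1368263_a_at, Mag and Ugt8, MCAO candesartan 2 lay farther from the MCAO vehicle pools than MCAO candesartan 1 did.

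Mbp codes for myelin basic protein, which holds the cytoplasmic faces of the membrane together in compact myelin. Probe set 1368810_a_at read 122217 and 231194 in MCAO candesartan, 100814 and 105614 in the MCAO vehicle pools, 114156 and 117269 in sham candesartan, and 105881 and 105203 in sham vehicle. One array, MCAO candesartan 2, was far above the rest, and the other MCAO candesartan pool was also the highest of the remaining 7. Probe set 1387341_a_at read 104157 and 160511 in MCAO candesartan, 91292 and 100127 in the MCAO vehicle pools, 111183 and 89295 in sham candesartan, and 90136 and 98388 in sham vehicle. It was again highest on MCAO candesartan 2, while the other pool of that group lay below a sham candesartan pool. Against MCAO vehicle, the MCAO candesartan difference was 0.70 ± 0.23 for 1368810_a_at (unadjusted p = 0.0109, adjusted p = 0.275 in limma). It was 0.43 ± 0.19 for 1387341_a_at (adjusted p = 0.371 in limma). Without MCAO candesartan 2 the Mbp differences were 0.24 and 0.12. With quantile normalization of all arrays they were 0.17 and 0.07, with cyclic loess 0.31 and 0.07, and with each array centred on its median 0.78 and 0.51. Against sham candesartan, the MCAO candesartan differences were 0.54 ± 0.23 and 0.37 ± 0.19, and 0.08 and 0.06 without MCAO candesartan 2. On MCAO candesartan 2, Mbp 1368810_a_at lay 1.12 above the median of the other 7 arrays, and 1 of the 104 probe sets in its range of brightness lay higher; for 1387341_a_at the deviation was 0.70, and 24 lay higher.

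Mobp codes for a small protein of the cytoplasmic side of compact myelin. Probe set 1368263_a_at read 14757 and 7413 in MCAO candesartan, 15071 and 17553 in the MCAO vehicle pools, 12029.6 and 9887 in sham candesartan, and 9906 and 11715 in sham vehicle. Both MCAO vehicle pools were above all other arrays, and the MCAO candesartan pools lay at opposite ends, just below them and below every other array. Probe set 1370434_a_at read 54792 and 55447 in MCAO candesartan, 52698 and 56619.7 in the MCAO vehicle pools, 55379.9 and 53908 in sham candesartan, and 50202 and 52443 in sham vehicle. Probe set 1370500_a_at read 30942 and 34985 in MCAO candesartan, 31212 and 35342 in the MCAO vehicle pools, 28509 and 29951 in sham candesartan, and 30609 and 28765 in sham vehicle. For the last of these, both MCAO groups lay above both sham groups with no overlap, though the nearest arrays were close, at 30942 and 30609. MCAO minus sham in vehicle rats was 0.58 ± 0.25 for 1368263_a_at (unadjusted p = 0.0413, adjusted p = 0.679 in limma), and 0.09 ± 0.11 and 0.16 ± 0.12 for the other two. MCAO candesartan minus MCAO vehicle was -0.62 ± 0.25 for 1368263_a_at (adjusted p = 0.343 in limma) and -0.14 without MCAO candesartan 2. For 1370434_a_at and 1370500_a_at this difference was 0.01 ± 0.11 and -0.01 ± 0.12. With that array left out they were 0.0044 and -0.10. MCAO minus sham in candesartan rats was -0.06 ± 0.25, 0.01 ± 0.11 and 0.17 ± 0.12 for the 3 probe sets, and 0.42, 0.0040 and 0.08 without the array, so the first of these turned sign. The annotation gives all 3 the same symbol, and which transcripts each of them reads was not tested.

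Mag codes for a sialic acid binding protein at the inner face of the sheath, next to the axon. Probe set 1368861_a_at read 18366 and 9813 in MCAO candesartan, 18849.7 and 21722 in the MCAO vehicle pools, 18745 and 14369.5 in sham candesartan, and 15969 and 13902 in sham vehicle. The MCAO vehicle pools were the highest 2 of the 8 arrays, and MCAO candesartan 2 was the lowest. MCAO minus sham was -0.28 ± 0.24 in candesartan rats and 0.43 ± 0.24 in vehicle rats (adjusted p = 0.655 and 0.765 in limma). With MCAO candesartan 2 left out, the value in candesartan rats turned to 0.16. The difference between these effects was -0.71 ± 0.34 (unadjusted p = 0.0594, adjusted p = 0.563 in limma), and -0.27 without the array. MCAO candesartan minus MCAO vehicle was -0.58 ± 0.24 (adjusted p = 0.352 in limma) and -0.14 without MCAO candesartan 2. On that array Mag lay 0.88 below the median of the other arrays, and 409 of the 412 probe sets of like brightness lay higher.

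Mog codes for a surface protein of the outermost turn of myelin and is a target of autoimmune demyelination. Probe set 1398257_at read 9793 and 8654 in MCAO candesartan, 9863 and 11443 in the MCAO vehicle pools, 10353 and 10089.9 in sham candesartan, and 9400 and 9867 in sham vehicle. Mog varied less than Mag. Its MCAO candesartan pools lay below both MCAO vehicle and both sham candesartan pools, with differences of -0.20 ± 0.12 (adjusted p = 0.503 in limma) and -0.15 ± 0.12 (adjusted p = 0.644 in limma). These were -0.11 and -0.06 without MCAO candesartan 2.

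Cnp codes for an enzyme of the cytoplasm-containing parts of myelin, long used as a marker of oligodendrocytes. Probe set 1370693_a_at read 10356 and 8934 in MCAO candesartan, 10782 and 14260.3 in the MCAO vehicle pools, 13344 and 10612 in sham candesartan, and 10409 and 12244.5 in sham vehicle. Probe set 1387897_at read 29731 and 27344 in MCAO candesartan, 32487.5 and 37665 in the MCAO vehicle pools, 36681 and 30462 in sham candesartan, and 34209 and 32735 in sham vehicle. In both probe sets the 2 MCAO candesartan pools were the lowest of the 8 arrays. For 1370693_a_at the margin was narrow, 10356 against 10409 in a sham vehicle pool. Against MCAO vehicle the difference was -0.35 ± 0.16 for 1370693_a_at and -0.29 ± 0.13 for 1387897_at (adjusted p = 0.391 and 0.375 in limma). For 1387897_at it was -0.50 with quantile normalization and with cyclic loess, and -0.21 with each array centred on its median. The Cnp differences were -0.25 and -0.23 for the 2 probe sets without MCAO candesartan 2. Against sham candesartan they were -0.30 ± 0.16 and -0.23 ± 0.13, and -0.19 and -0.17 without the array.

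Ugt8 codes for the enzyme that makes galactosylceramide, the main glycolipid of myelin. Probe set 1368858_at read 5139.9 and 3380 in MCAO candesartan, 5579.9 and 7104 in the MCAO vehicle pools, 5730.4 and 5535 in sham candesartan, and 5742 and 5617 in sham vehicle. The 4 sham arrays lay close together, both MCAO candesartan pools lay below them, and of the MCAO vehicle pools 1 lay among them and 1 above. MCAO minus sham was -0.40 ± 0.18 in candesartan rats and 0.14 ± 0.18 in vehicle rats (adjusted p = 0.388 and 0.938 in limma), and the first was -0.12 without MCAO candesartan 2. MCAO candesartan minus MCAO vehicle was -0.55 ± 0.18 (unadjusted p = 0.0100, adjusted p = 0.266 in limma), the smallest adjusted p of any member in any comparison, and -0.28 without MCAO candesartan 2. The other Ugt8 probe set, 1368857_at, read 20.5 and 33 in MCAO candesartan, 20 and 34 in the MCAO vehicle pools, 17.5 and 45 in sham candesartan, and 16 and 32 in sham vehicle. These signals are far below the filter of 916, so this probe set carries no comparison.

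Cldn11 codes for the claudin of the tight junctions that seal the turns of central myelin. Probe set 1369609_at read 8911 and 7965 in MCAO candesartan, 9214 and 10713 in the MCAO vehicle pools, 10653 and 6179 in sham candesartan, and 9416 and 10969 in sham vehicle. Probe set 1376711_at read 38979 and 37435 in MCAO candesartan, 37633.5 and 43532 in the MCAO vehicle pools, 40539 and 42573 in sham candesartan, and 38624.5 and 38727 in sham vehicle. For the first, the spread between the sham candesartan pools was wider than any difference between groups. MCAO candesartan minus MCAO vehicle was -0.23 ± 0.21 and -0.08 ± 0.12 for the 2 probe sets (adjusted p = 0.672 and 0.795 in limma), and -0.15 and -0.05 without MCAO candesartan 2. MCAO minus sham in candesartan rats was 0.05 ± 0.21 and -0.12 ± 0.12, and 0.13 and -0.09 without that array.

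**Figure D1:**
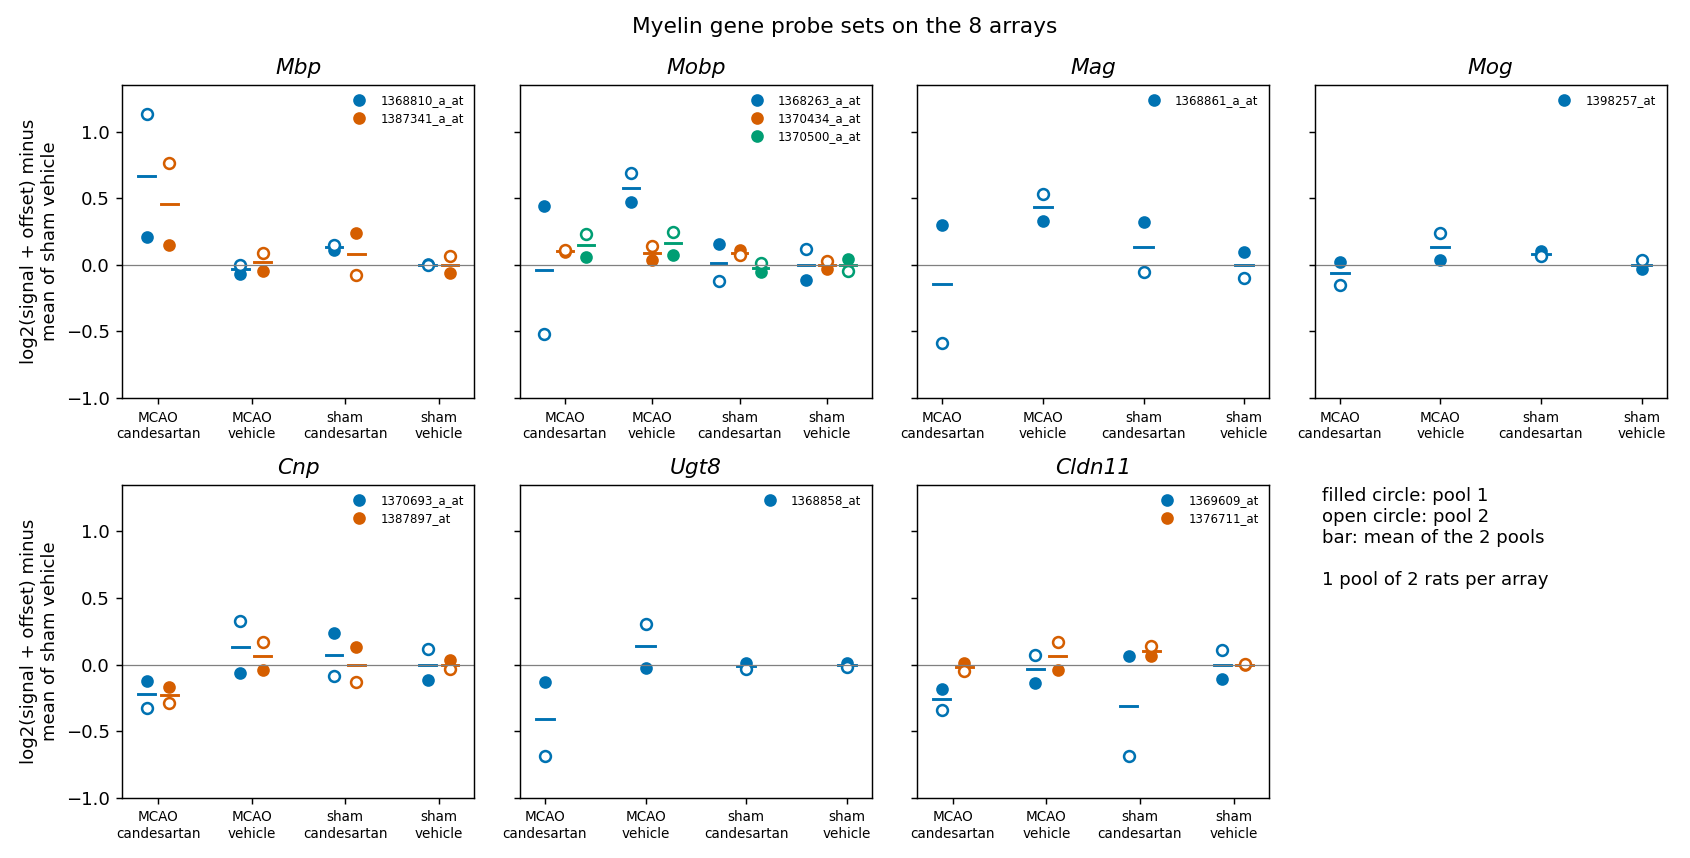
Each panel is a gene, with the 4 groups along the x axis and log2(signal + 370) minus the mean of the sham vehicle pools on the y axis, 1 colour per tested probe set. Filled circles are pool 1, open circles pool 2 and bars the mean of the 2 pools. The open circles of MCAO candesartan lie far from the filled ones for Mbp (1.13 for 1368810_a_at, against 0.21), Mobp 1368263_a_at, Mag and Ugt8, while Mog and Cnp show smaller gaps.

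Across the members, the median MCAO difference in vehicle rats was 0.11 over the 12 probe sets, with 10 above 0, against 0.01 over all tested probe sets. The largest was 0.58 for Mobp 1368263_a_at. The p-values of this comparison also rest on the spread between the MCAO candesartan pools. At an unadjusted p under 0.05, 1 of 12 members passed, while 7.04% of all tested probe sets did, and 0.262% of all were called after adjustment. The MCAO vehicle pools lay wholly above the sham vehicle pools for 4 members, against 24.6% of all probe sets, and wholly below for 0, against 20.6%. The members' median depended on MCAO vehicle 2, without which it was -0.03. This pool was above its fellow MCAO vehicle pool in 12 of 12 members, while 52.4% of all tested probe sets were higher in it.

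In candesartan rats the members' median MCAO difference was -0.09, with 5 above 0 and 7 below, against -0.03 over all probe sets. At an unadjusted p under 0.05, 2 of 12 passed, Mbp 1368810_a_at at 0.54 ± 0.23 and Ugt8 1368858_at at -0.40 ± 0.18, while 12.4% of all did and 0.242% of all were called. The MCAO candesartan pools lay wholly above the sham candesartan pools for 2 members, against 16.9% of all, and wholly below for 5, against 21.4%. Without MCAO candesartan 2 the members' median was 0.03.

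Candesartan after MCAO gave the most members at an unadjusted p under 0.05, 6 of 12, both Mbp probe sets higher and 4 lower (Mobp 1368263_a_at, Mag, Cnp 1387897_at and Ugt8). Among all tested probe sets 13.1% reached that threshold and 0.0679% were called. The MCAO candesartan pools lay wholly above the MCAO vehicle pools for 2 members, against 18% of all, and wholly below for 7, against 23.8%. The median was -0.21, with 9 of 12 below 0, against -0.03 over all. Without MCAO candesartan 2 the median was -0.13, and 1 of 12 members passed, while 9.99% of all did. With quantile normalization 8 of 12 passed, all lower, against 11.2% of all, and the median was -0.32. With each array centred on its median 3 of 12 passed, 2 higher and 1 lower, against 13.8% of all, and the median was -0.13. This comparison and MCAO in candesartan rats share the MCAO candesartan pools, so their values for a member move together.

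Candesartan after sham gave no member at an unadjusted p under 0.05, while 3.92% of all tested probe sets passed that threshold and 0% were called. The members' median was 0.08, with 8 of 12 above 0, against 0.01 over all. The sham candesartan pools lay wholly above the sham vehicle pools for 4 members, against 18.9% of all, and wholly below for 0, against 14.9%. The largest difference was -0.31 ± 0.21 for Cldn11 1369609_at, with a 95% interval from -0.77 to 0.15. Without sham candesartan 1 the median was -0.04.

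The interaction, the MCAO effect in candesartan rats minus that in vehicle rats, had a median of -0.23 over the members, with 8 of 12 below 0, against -0.05 over all probe sets. No member passed an unadjusted p of 0.05, while 8.86% of all did and 0.0194% were called. The values of largest size were -0.71 ± 0.34 for Mag, -0.63 ± 0.35 for Mobp 1368263_a_at and 0.57 ± 0.32 for Mbp 1368810_a_at. They were -0.27, -0.15 and 0.11 without MCAO candesartan 2, and the median was -0.16. The median ran from -0.40 with quantile normalization to -0.10 with each array centred on its median, where the median over all probe sets was 0.08.

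**Figure D2:**
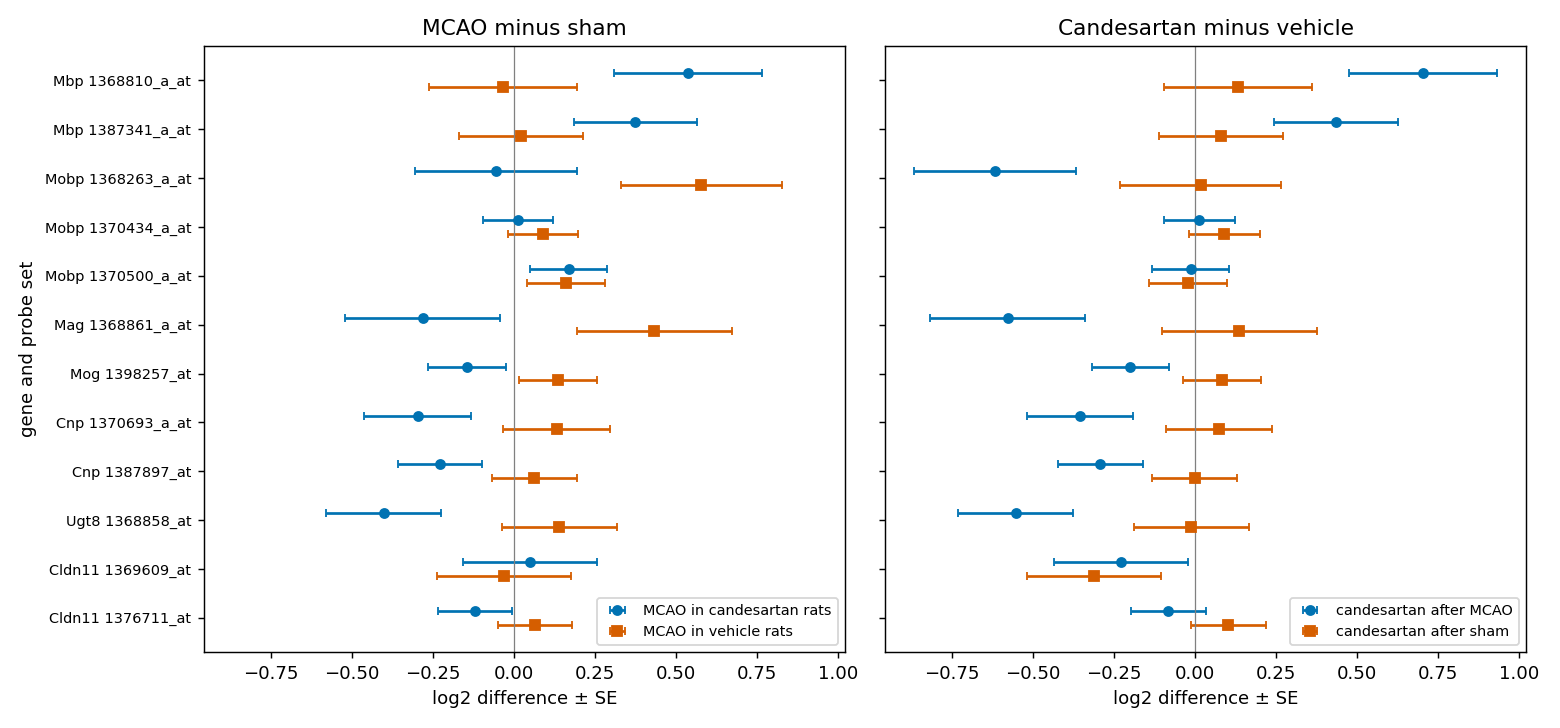
Points are log2 differences of the 12 tested probe sets with bars of 1 SE, MCAO minus sham on the left (candesartan rats as circles, vehicle rats as squares) and candesartan minus vehicle on the right (after MCAO as circles, after sham as squares). On the right, Mbp 1368810_a_at at 0.70 lies to one side of 0 and Ugt8 at -0.55, Mag at -0.58 and Mobp 1368263_a_at at -0.62 lie to the other, while the values after sham lie between -0.31 and 0.14.

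The members did not all follow the arrays alike. Over all 66 pairs of tested member probe sets the median Pearson correlation was 0.37 (-0.92 to 0.93) over 8 arrays. Without MCAO candesartan 2 it was 0.44. Over the 8 arrays the 10 pairs of probe sets among Mag, Mog, Cnp and Ugt8 had a median Pearson correlation of 0.84 (0.71 to 0.90), and 0.69 over 7 arrays without MCAO candesartan 2. Mbp with the same probe sets had a median of -0.65 (-0.92 to -0.37) over 8 arrays and -0.0007 over 7. Over 7 arrays the Mbp probe sets parted, with 1368810_a_at between -0.46 and -0.063 and 1387341_a_at between 0.061 and 0.59. The correlation of the 2 Mbp probe sets with each other was 0.93 over 8 arrays and 0.39 over 7. The Mobp probe sets differed in their correlation with those of Mag, Mog, Cnp and Ugt8 over 8 arrays. It was 0.59 to 0.91 for 1368263_a_at, -0.085 to 0.38 for 1370434_a_at and -0.24 to -0.016 for 1370500_a_at. For Cldn11 it was 0.37 to 0.67 for 1369609_at and 0.46 to 0.82 for 1376711_at, while these correlated at -0.087 with each other. These correlations describe arrays that share groups and scaling, and carry no test.

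**Figure D3:**
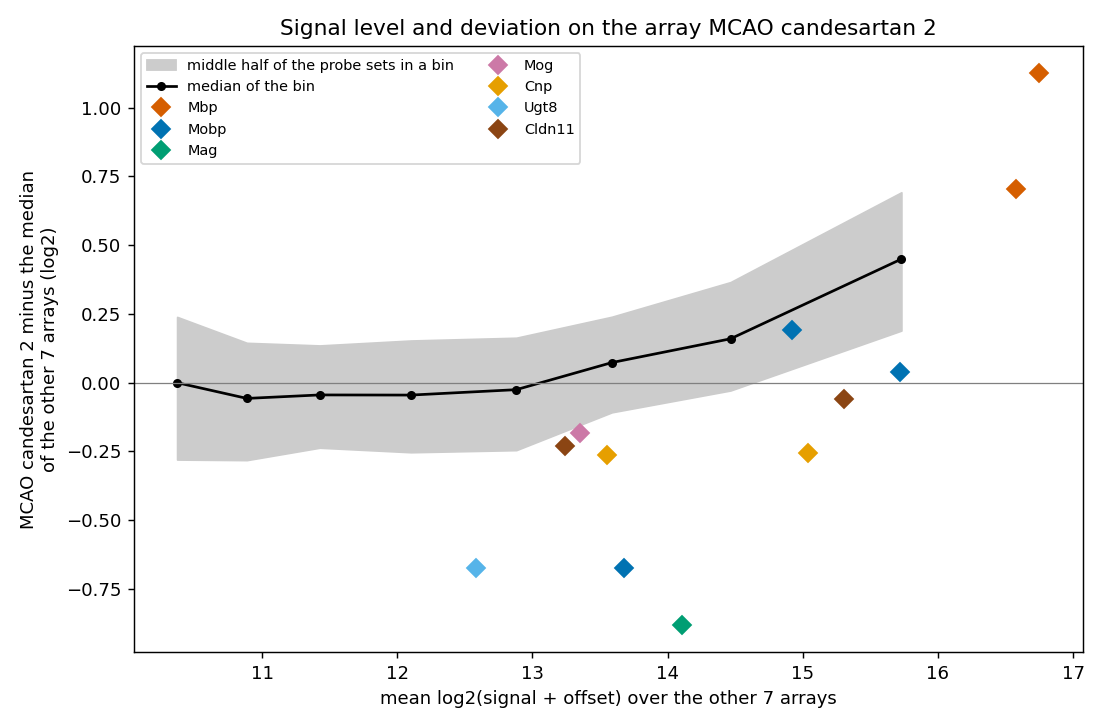
The y axis is log2(signal + 370) on MCAO candesartan 2 minus the median of the other 7 arrays, and the x axis is the mean over those 7. The line joins the medians of bins of all tested probe sets, the shading is their interquartile range, and diamonds are the members. The line climbs to 0.45 in the brightest bin; Mbp lies at 1.12 and 0.70, and Mag (-0.88), Ugt8 (-0.68) and Mobp 1368263_a_at (-0.67) lie well under the line.

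Genes whose profile over the 8 arrays was most like the mean profile of the 7 genes were Slc35a1 (Pearson r = 0.959), Vps33a (0.950), Daam1 (0.944), Virma (0.943), Alg14 (0.940), Bltp3a (0.937), Spout1 (0.924) and Fnbp4 (0.923). The most opposed were Tmx2 (-0.983), Psmd7 (-0.946), Pcif1 (-0.925) and Atp6v0e2 (-0.924). They were picked as extremes among 7469 genes over only 8 arrays. The mean profile does not stand for Mbp, whose probe sets correlated with it at -0.53 and -0.34. Without MCAO candesartan 2 these were -0.0061 and 0.48. The other member probe sets lay between 0.15 and 0.94 over 8 arrays.

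Other genes of myelin and of mature oligodendrocytes were read from a list of 45, of which 31 were on the array and 30 were tested with 36 probe sets; Enpp6 was below the filter. None was called in any comparison. For candesartan after MCAO, 1 probe set was higher and 8 lower at an unadjusted p under 0.05, with a median of -0.13, where 5.43% of all were higher and 7.68% lower at that threshold. The counts were 1 and 5 without MCAO candesartan 2, where 9.99% of all passed in either direction. For MCAO in vehicle rats 3 were higher and 0 lower, with a median of 0.09, where 4.53% of all were higher. Cryab, a small heat shock protein abundant in oligodendrocytes, read 7824 and 7522 in MCAO candesartan, 11058 and 10630.5 in the MCAO vehicle pools, 7696.5 and 7355 in sham candesartan, and 6546 and 7730.4 in sham vehicle. Aspa, the enzyme that releases acetate from N-acetylaspartate, read 2118 and 2336.5 in MCAO candesartan, 3089 and 3191 in the MCAO vehicle pools, 2256 and 2596 in sham candesartan, and 1920.1 and 2049 in sham vehicle. For both genes the MCAO vehicle pools stood above the other 6 arrays, by 0.58 ± 0.12 and 0.58 ± 0.13 against sham vehicle (adjusted p = 0.113 and 0.170 in limma). Gpr37, a receptor of maturing oligodendrocytes, was at -0.59 ± 0.15 in MCAO candesartan against MCAO vehicle (adjusted p = 0.239 in limma), and at -0.36 without MCAO candesartan 2. Sgk1, a kinase induced by glucocorticoids, was at -0.78 ± 0.15 in MCAO candesartan against sham candesartan (adjusted p = 0.0913 in limma), and at -0.56 without MCAO candesartan 2.

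Of 22 lineage transcription factors and precursor genes, 15 were tested with 21 probe sets and none was called. Tcf7l2, a factor of differentiating oligodendrocytes that thalamic neurons also express, read 4078 and 3748 in MCAO candesartan, 6194 and 6952 in the MCAO vehicle pools, 5176 and 6169 in sham candesartan, and 5790.3 and 6336 in sham vehicle. Its MCAO candesartan pools were below all other arrays, at -0.70 ± 0.13 against MCAO vehicle (adjusted p = 0.121 in limma) and -0.64 without MCAO candesartan 2. Against MCAO vehicle, Ptprz1, a phosphatase of precursors and astrocytes, was at -0.58 ± 0.19 (adjusted p = 0.275 in limma), and Id2, an inhibitor of differentiation, was at 0.53 ± 0.17 (adjusted p = 0.264 in limma). They were at -0.39 and 0.55 without MCAO candesartan 2. Cdkn1c, a cell cycle inhibitor, was at -0.60 ± 0.23 in MCAO candesartan against sham candesartan (adjusted p = 0.339 in limma), and at -0.30 without that array.

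Myelin membrane is rich in cholesterol, which brain cells make themselves. Of 24 genes of that pathway and its regulators, 19 were tested with 25 probe sets, and none was called. For candesartan after MCAO, 10 were lower and 0 higher at an unadjusted p under 0.05, against 7.68% of all lower and 5.43% higher, with a median of -0.26. Without MCAO candesartan 2, 7 were lower and 0 higher, against 9.99% of all in either direction, with a median of -0.25. Their summed signal was 88214 to 88639 in MCAO candesartan, 107257 to 107630 in the MCAO vehicle pools, 95102 to 95515 in sham candesartan, and 95072.5 to 96337 in sham vehicle. The pools of each group lay close together, MCAO vehicle above and MCAO candesartan below the sham groups. Idi1, an isomerase early in the pathway, read 4372 and 3034 in MCAO candesartan, 5862 and 7021 in the MCAO vehicle pools, 3289 and 3405 in sham candesartan, and 4447 and 4027 in sham vehicle. Its difference after MCAO was -0.76 ± 0.16 (adjusted p = 0.194 in limma), and -0.52 without MCAO candesartan 2. Dhcr7, which makes cholesterol in the last step of its branch, was at -0.70 ± 0.19 in the interaction (adjusted p = 0.466 in limma), and at -0.57 without that array. In MCAO candesartan against sham candesartan, the early kinase Mvk was at 0.65 ± 0.21 and the sterol reductase Tm7sf2 at -0.52 ± 0.17 (adjusted p = 0.292 for both in limma), and without that array at 0.48 and -0.39.

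Of 5 genes known from peripheral myelin, Egr2 and Pmp22 were tested with 3 probe sets. Egr2, a transcription factor of Schwann cells and an immediate early gene of neurons, read 2538 and 2855 in MCAO candesartan, 2593 and 2394 in the MCAO vehicle pools, 1432 and 1151 in sham candesartan, and 1421 and 1482 in sham vehicle. All 4 MCAO pools were above all 4 sham pools. Egr2 rose by 0.89 ± 0.14 after MCAO in candesartan rats (adjusted p = 0.0411 in limma), and was at 0.65 ± 0.14 in vehicle rats (adjusted p = 0.159 in limma). The call held in 7 of 18 alternatives, and without MCAO candesartan 2 the adjusted p was 0.123; the interaction was 0.24 ± 0.20 (adjusted p = 0.735 in limma). Pmp22 was at -0.50 ± 0.13 in MCAO candesartan against MCAO vehicle (adjusted p = 0.239 in limma), and at -0.57 without MCAO candesartan 2.

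Some lists of markers of other cells also differed on the MCAO candesartan pools, at unadjusted p-values only. For candesartan after MCAO, 0 of 11 probe sets of striatal markers passed an unadjusted p of 0.05. The medians of the microglial and vascular lists were 0.01 and -0.02, against -0.03 over all probe sets. Of 17 probe sets of pyramidal and general neuron markers, 17 were above 0 for candesartan after MCAO and 7 passed an unadjusted p of 0.05, all higher, where 5.43% of all tested probe sets were higher at that threshold. None was called. Without MCAO candesartan 2, 5 passed, against 9.99% of all in either direction. Their summed signal was 292022 to 352368 in MCAO candesartan, 221983 to 243007 in the MCAO vehicle pools, 229353 to 235138 in sham candesartan, and 230471 to 259811 in sham vehicle. Camk2a, a kinase of forebrain excitatory neurons, was at 1.90 ± 0.41 against MCAO vehicle (adjusted p = 0.194 in limma), and at 2.16 without that array. Of 9 probe sets of hypothalamus and thalamus markers, 1 was higher and 3 lower at that threshold in the same comparison. The shares over all probe sets were 5.43% higher and 7.68% lower. In this list 6 of 9 were above 0, with a median of 0.21 against -0.03 over all, and 0.10 without MCAO candesartan 2. Sst, a peptide of inhibitory neurons in many brain regions, was at 0.70 ± 0.16 (adjusted p = 0.195 in limma). Slc17a6, the glutamate transporter of thalamic neurons, was at -0.51 ± 0.12 (adjusted p = 0.195 in limma), and Prkcd, a kinase of thalamic neurons, was at -0.48 ± 0.18 (adjusted p = 0.313 in limma). Without the array Sst, Slc17a6 and Prkcd were at 0.59, -0.49 and -0.32. The summed signal of 10 astrocyte genes was 235255 to 313898 in MCAO candesartan, 244174 to 260772 in the MCAO vehicle pools, 274570 to 290353 in sham candesartan, and 287090 to 294957 in sham vehicle. The 2 blood cell genes tested, Hbb and Alas2, had a summed signal of 79474 to 81864 in MCAO candesartan, 89475 to 95947 in MCAO vehicle, 94271 to 110186 in sham candesartan, and 93197 to 103756 in sham vehicle. No probe set was called in the lists of astrocyte, striatal, hypothalamic and thalamic, microglial, vascular, choroid plexus and blood cell markers. The part of these markers in the differences of the myelin genes was not tested.

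**Figure D4:**
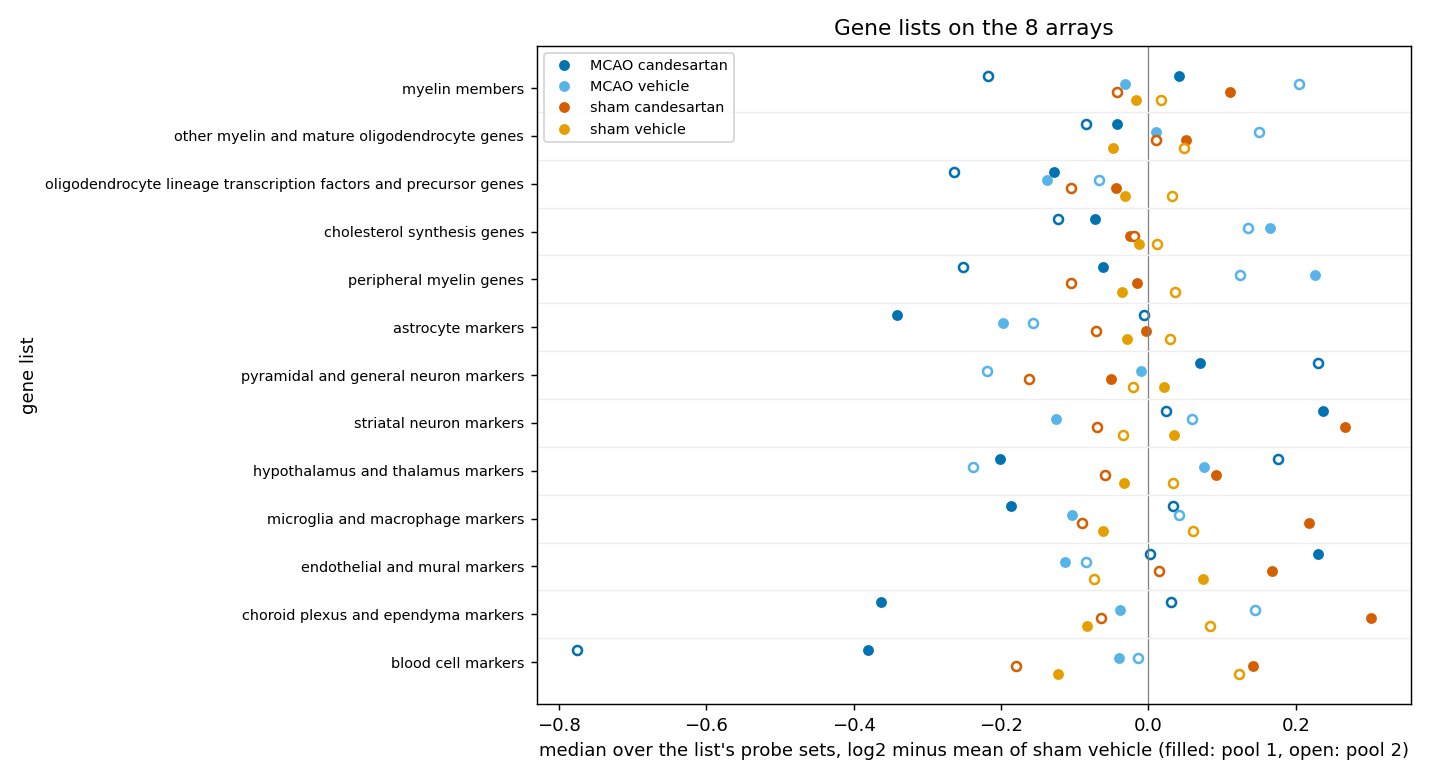
Each row is a gene list, and each point is the median over its tested probe sets of log2(signal + 370) minus the sham vehicle mean on 1 array, filled for pool 1 and open for pool 2. The myelin members span -0.22 on MCAO candesartan 2 to 0.20 on MCAO vehicle 2, the cholesterol genes separate the MCAO candesartan pools (-0.07 and -0.12) from the MCAO vehicle pools (0.17 and 0.13), and the neuron markers are highest on MCAO candesartan 2 at 0.23.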

How the data were processed

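The authors deposited 1 linear intensity for each probe set on each of 8 arrays, made with GCOS, the software of the Affymetrix scanner, per the submitters' processing notes; its version and settings are not given in the sources used here. Trimmed means (2%) differed between arrays by 0.000426% at most, so the authors' scaling was kept. Of 15923 probe sets, 57 were controls and were not tested. They count in the percentiles given below, and the beta-actin and GAPDH signals come from them.

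Before log2, each signal was raised by 370 (the 20th percentile over the table), which understates changes of dim probe sets. Probe sets with a signal above 916, the 40th percentile, on at least 2 arrays were kept, 10314 in all. One limma model of the 4 group means was fitted to them with limma 3.58.1 in R 4.3.3, using eBayes with a trended variance on 4 residual degrees of freedom. The 5 contrasts were adjusted with the Benjamini-Hochberg method over all tested probe sets, and those with an adjusted p under 0.05 were called. For a single probe set, 2 pools against 2 allow no exact p below 0.333, so the p-values rest on a spread pooled over groups and probe sets. The number of arrays limits the precision. The fit was tested on simulated data with the same spread in all groups and no outlying array. That setting does not cover an array such as MCAO candesartan 2.

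Symbols came from the platform annotation, which gave 1 symbol to 12789 probe sets, and all 7 members matched the RefSeq gene table of GRCr8. Promoter sequences are from RefSeq, GRCr8. The members and lists were chosen with earlier results of these data known. All member probe sets are named, up to 4 genes with the smallest p from each other list are eligible, and for likeness the 8 highest and 4 lowest correlations are given. Samples of the same pool number did not deviate together (correlations -0.09 to 0.14), so the main fit has no block. Alternatives changed the scaling, the offset, the filter, the variance model or the groups fitted, added a replicate block, or dropped 1 array at a time; those for the other lists and their genes were chosen after seeing the data.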

Additional observations from a re-analysis of the deposited data

How the results depend on the processing

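Of 1068 values of member probe sets under the alternatives, 61 turned sign, none of them called, and the largest of these had a size of 0.31 (log2) as reported. Of the 13 called under an alternative, 12 came without MCAO candesartan 1, which leaves MCAO candesartan 2 alone in its group and assumes that it varies like the other groups. Leaving out 1 array at a time, the members called ranged from 0 to 4 for MCAO in candesartan rats, 0 to 5 for candesartan after MCAO and 0 to 3 for the interaction. The upper ends all came without that array, where 8.1%, 9.55% and 2.91% of all tested probe sets were called. The members' median for MCAO in vehicle rats ranged from -0.031 to 0.20. With only the groups of the contrast in the fit, 1 member was called for MCAO in vehicle rats, Mobp 1368263_a_at (adjusted p = 0.0417 in limma), beside 0.902% of all. The members' median in the interaction was -0.40 with quantile normalization and -0.39 with cyclic loess, and -0.10 with each array centred on its median, against -0.23 as reported; the cause was not tested. The replicate block gave 0 called members in all 5 comparisons, left the medians as they were (-0.21 for candesartan after MCAO), and its lowest adjusted p there was 0.299 in limma; the samples share only a number. With no single array dropped, the calls over all probe sets ranged from 12 to 93 for MCAO in vehicle rats (27 as reported). They ranged from 11 to 31 for MCAO in candesartan rats (25), 0 to 9 for candesartan after MCAO (7) and 0 to 3 for the interaction (2). The 93 and the 11 came with only the groups of the contrast in the fit, which leaves out the arrays of the other groups. With all 8 arrays fitted, the highest count for MCAO in vehicle rats was 27. The lowest for MCAO in candesartan rats was then 16. The 2 pools in each group limit every comparison.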
